A study of Mus musculus with 10 samples.

Results

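The comparison described here is that of mouse embryonic fibroblasts transfected with siRNA against Rbm3 with mock-transfected fibroblasts, both kept at 37 °C. It uses 4 of the 10 samples of the series, namely 2 polyadenylated RNA libraries labelled siRbm3 (siRbm3-1 and siRbm3-2) and 2 mock libraries. The other RNA libraries, 2 from cells given siRNA against Cirbp at 37 °C and 2 from mock-transfected cells at 32 °C, entered the statistical fit for the spread between replicates only, and their levels are given where they stand beside a result. The last 2 samples are PAR-CLIP libraries of fibroblast lines that stably express FLAG-tagged Rbm3 or FLAG-tagged Cirbp, in which RNA carrying 4-thiouridine is crosslinked to the protein and the bound sites are sequenced. All cells were wild type as far as the labels say, and all were grown in serum-containing medium. No group received a control siRNA, so the effect of introducing any siRNA cannot be told apart from that of the siRbm3 sequence. The labels do not say whether siRbm3-1 and siRbm3-2 mark different siRNAs or whether libraries of a group came from separate cultures. The p-values below speak for the variation among these libraries, which may be technical.

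Rbm3 is a small RNA-binding protein with one RNA recognition motif and a glycine-rich tail, and its closest relative is Cirbp, the cold-inducible RNA-binding protein. Both are induced when mammalian cells are cooled mildly. They bind many mRNAs, often close to the 3' end, and have been connected with translation, with the choice of polyadenylation site and with the circadian clock. An siRNA acts by guiding the RNA interference complex to a complementary mRNA, which is then cut, so the level of the targeted mRNA is the first check on such an experiment.

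Levels are given as FPKM, a length- and depth-normalised measure of fragments per transcript, summed over the transcripts of a gene. Depth recovered from the coverage column ran from 25.1 M to 28.2 M fragments over the 8 RNA libraries, and siRbm3-2 was the shallowest. The test took in 10675 of 22552 listed genes, those averaging 1 FPKM or more across the libraries compared and having a transcript of 200 nt or longer. Differences are in log2(FPKM + 1), a scale that understates the change of genes with low levels. Fibroblast markers were abundant, with Col1a1, the main chain of type I collagen, at 675 and 775 FPKM in mock and 1034 and 1113 FPKM in siRbm3, whereas Thy1, a surface marker of many fibroblasts, was listed at 0 in all 4. The summed level of 12 fibroblast markers was 8510 and 8594 FPKM in mock and 8805 and 10746 in siRbm3. Of 11 macrophage and blood markers, 4, with Ptprc and Emr1 among them, were listed at 0 in all 4 libraries. The sum of the 11 was 29.8 and 33.6 FPKM in mock, 19.6 in siRbm3-1 and 41.0 in siRbm3-2. The sum of 12 epithelial markers was 2.02 and 2.24 FPKM in mock, 3.18 in siRbm3-1 and 8.29 in siRbm3-2, most of it Krt19, and in bulk RNA fewer cells of a type and less RNA per cell cannot be told apart.

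The targeted gene went against the label in one of the libraries. Rbm3 (mm9, chromosome X, 7716101 to 7722928) stood at 1.85 and 2.21 FPKM in mock, 3.05 FPKM in siRbm3-1 and 1.16 FPKM in siRbm3-2. The library labelled siRbm3-1 thus held 150% of the mock mean and siRbm3-2 held 57.3%, and the groups overlapped. The group difference for Rbm3 was -0.03 (SE 0.29, limma adjusted p = 0.967), and for the single libraries it was 0.42 in siRbm3-1 (adjusted p = 0.426) and -0.48 in siRbm3-2 (adjusted p = 0.160). In the other libraries Rbm3 stood at 5.54 and 7.55 FPKM after siRNA against Cirbp and at 3.64 and 3.20 FPKM in mock cells at 32 °C.

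Most of the Rbm3 signal at 37 °C was assigned to a transcript of 2900 nt. It made up 78.3% and 76.3% of the gene's FPKM in mock, 91.1% in siRbm3-1 and 88.9% in siRbm3-2, against 16.1% and 19.8% in mock cells at 32 °C. The 3 shorter transcripts, of 1263 to 1270 nt, share with it the boundary at 7722928 and the start site identifier of the deposited files, and reach to 7719482 rather than 7716101 on mm9. Their summed level was 0.402 and 0.522 FPKM in mock, 0.272 FPKM in siRbm3-1 and 0.128 FPKM in siRbm3-2, which is 58.8% and 27.8% of the mock mean. For these short transcripts alone, both siRbm3 libraries lay below both mock libraries, but at levels under 1 FPKM and without a test. The assignment among them was unstable. The transcript of 1270 nt stood at 0.00433 FPKM in mock replicate 1 and 0.522 FPKM in mock replicate 2. Because siRbm3-1 did not hold less total Rbm3 mRNA than mock, "siRbm3" is used below as the name on the label, and every direction drawn from siRbm3-1 carries that limit.

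Cirbp was not lower in a uniform way either. It stood at 15.9 and 17.1 FPKM in mock, 13.8 FPKM in siRbm3-1 and 23.8 FPKM in siRbm3-2. The Cirbp difference was 0.13 (SE 0.30, limma adjusted p = 0.838), with -0.24 in siRbm3-1 (adjusted p = 0.727) and 0.50 in siRbm3-2 (adjusted p = 0.241). The 2 siRbm3 libraries thus lay on opposite sides of the mock libraries for both cold-inducible proteins, with neither difference past the threshold of an adjusted p under 0.05. Without siCirbp replicate 1 the limma adjusted p for Rbm3 was 0.0414 in siRbm3-1 and 0.0104 in siRbm3-2, and without siCirbp replicate 2 it was 0.0413 and 0.0104, in opposite directions. Cirbp in siRbm3-2 likewise passed without either siCirbp replicate (adjusted p = 0.00412 and 0.00419).

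**Figure D1:**
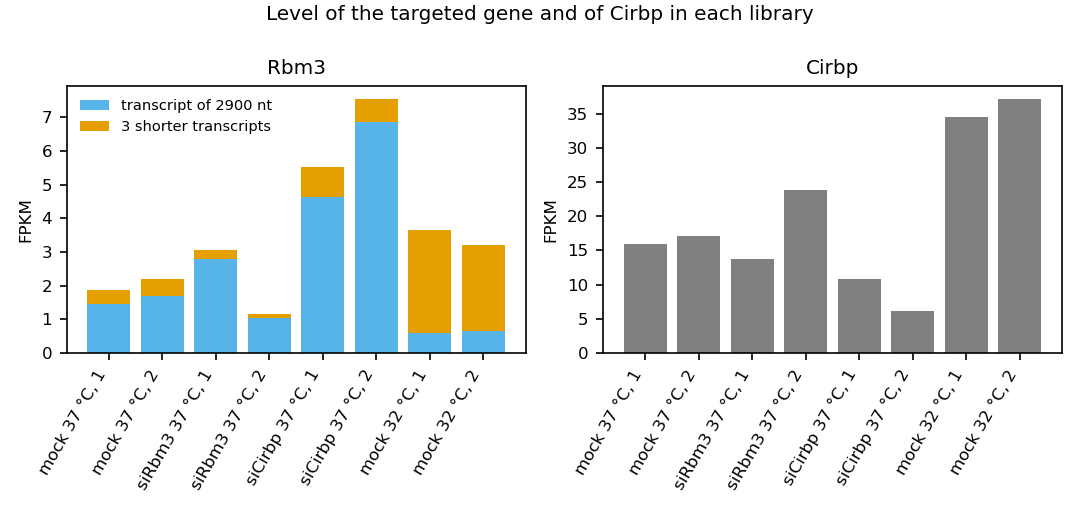
FPKM of Rbm3 (left, split into the transcript of 2900 nt and the 3 shorter ones) and of Cirbp (right) in each of the 8 RNA libraries, 1 bar per library. For Rbm3, siRbm3-1 is above both mock 37 °C libraries and siRbm3-2 is below both, and the short transcripts form most of the bar only at 32 °C.

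The libraries of the siRbm3 group differed from each other more than those of any other group. The median absolute log2 difference between replicates over 10675 genes was 0.0877 for mock at 37 °C, 0.106 for mock at 32 °C, 0.261 for siCirbp and 0.313 for siRbm3. At least 2-fold apart on the scale of FPKM + 1 were 4 genes between the mock 37 °C libraries and 718 genes between the siRbm3 libraries. Across genes, the levels in siRbm3-1 correlated at Pearson's r of 0.975 and 0.970 with the siCirbp libraries, 0.974 and 0.976 with the mock libraries and 0.950 with siRbm3-2, all of which share annotation and transcript length. Every group result below rests on these 2 unlike libraries.

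No gene passed the threshold in siRbm3 against mock. With limma, 0 genes were higher and 0 were lower at an adjusted p under 0.05, which is 0% of those tested in each direction. At an unadjusted p under 0.05 there were 1446 genes, 989 higher (9.26%) and 457 lower (4.28%). Both siRbm3 libraries lay above both mock libraries for 4018 genes (37.6%) and below both for 1400 genes (13.1%). The median difference over all genes tested was 0.12 for the group, 0.07 for siRbm3-1 and 0.21 for siRbm3-2, and removing the trend with transcript length brought the group median to 0.02. Without siRbm3-1 the count became 1034, and without siRbm3-2 it became 18. On the scale of FPKM + 1, 3 genes (0.0281%) lay at least 2-fold above the mock mean in both libraries and 16 (0.15%) at least 2-fold below it.

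Genes at the lower end were led by immediate early genes, which serum and stress switch on within minutes. Fos, a subunit of the AP-1 transcription factor, stood at 13.9 and 13.6 FPKM in mock, 2.27 FPKM in siRbm3-1 and 3.27 FPKM in siRbm3-2. Its difference of -1.98 (SE 0.19) had a limma adjusted p of 0.0579, just short of the threshold. Ptgs2, the inducible cyclooxygenase of prostaglandin synthesis, stood at 59.2 and 60.9 FPKM in mock and at 23.0 and 18.3 FPKM in siRbm3, a difference of -1.50 (SE 0.16) with the same adjusted p of 0.0579. For both genes the 4 libraries separated cleanly by label, which was a condition for being named here. Fos and Ptgs2 passed with limma when only genes of at least 5 FPKM were tested (both adjusted p = 0.0463), after median centring (both 0.0498) and after the length trend was removed (0.0178 for Fos and 0.0347 for Ptgs2). They did not pass without mock replicate 1 (both 0.986) or 2 (both 0.719), nor when only the 4 libraries were fitted (both 0.476).

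Ier2, an immediate early nuclear protein, measured 113 and 134 FPKM in mock and 37.2 and 42.6 FPKM in siRbm3. Egr1, a zinc finger transcription factor induced by growth factors, measured 211 and 230 FPKM in mock, 80.5 FPKM in siRbm3-1 and 48.7 FPKM in siRbm3-2. The differences were -1.60 for Ier2 and -1.80 for Egr1 (SE 0.20 and 0.23), each with a limma adjusted p of 0.0918. Btg2, an antiproliferative gene that is also an immediate early gene, measured 27.3 and 25.2 FPKM in mock and 11.2 and 8.15 FPKM in siRbm3, a difference of -1.37 (adjusted p = 0.155). In none of the 3 did the groups overlap, which was again a condition for being named. Beside them, the siCirbp libraries, compared with the same mock controls, held Fos at 3.51 and 2.73 FPKM, Ptgs2 at 23.3 and 24.5, Ier2 at 26.8 and 39.5 and Egr1 at 58.6 and 66.0. Low levels were not limited to cells given siRNA. Mock cells at 32 °C held Fos at 1.34 and 1.30 FPKM, Ier2 at 27.1 and 27.1 and Egr1 at 40.4 and 37.2. They held Btg2 at 14.3 and 16.2 FPKM, whereas Ptgs2 stood at 68.3 and 62.5 FPKM there.

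The other genes at the lower end were of several kinds. Ptchd1, a membrane protein related to the Hedgehog receptor, measured 6.02 and 5.39 FPKM in mock, 0.553 FPKM in siRbm3-1 and 1.1 FPKM in siRbm3-2, a difference of -1.89 (limma adjusted p = 0.0918). Inhba, the activin A subunit, measured 61.5 and 69.3 FPKM in mock and 31.3 and 31.4 FPKM in siRbm3, a difference of -1.04 (adjusted p = 0.166). Flrt2, an adhesion protein with leucine-rich repeats, measured 9.08 and 8.61 FPKM in mock and 3.85 and 2.51 FPKM in siRbm3, a difference of -1.25 (adjusted p = 0.166). Zfp52, a zinc finger protein, and Tfpi, the inhibitor of the tissue factor clotting pathway, had differences of -1.16 and -0.93. Both siRbm3 libraries lay below both mock libraries for all of these genes, as the choice required, and none passed the threshold.

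Among the 10 genes of smallest p in each direction, those at the upper end had differences of 0.67 to 1.21, and those at the lower end of -1.98 to -0.93. Grb10, an imprinted adaptor that dampens insulin receptor signalling, stood at 1.68 and 1.75 FPKM in mock and at 5.33 and 5.19 FPKM in siRbm3, a difference of 1.21 (SE 0.15, limma adjusted p = 0.0918). The 2 siRbm3 libraries held nearly the same Grb10 level, and the siCirbp libraries held 5.29 and 4.76 FPKM. Letmd1, a mitochondrial membrane protein, measured 7.19 and 7.50 FPKM in mock and 13.4 and 16.3 FPKM in siRbm3, a difference of 0.92 (adjusted p = 0.332). Ccnf, the cyclin of an SCF ubiquitin ligase, and Ncapd2, a condensin subunit, had differences of 0.80 and 0.69. The siCirbp libraries held Letmd1 at 13.0 and 16.3 FPKM and Ccnf at 21.8 and 22.6 FPKM (7.63 and 8.33 in mock). They held Ncapd2 at 59.7 and 63.3 FPKM (31.1 and 30.6 in mock). Msln, the mesothelial surface protein mesothelin, measured 18.9 FPKM in both mock libraries, 41.5 FPKM in siRbm3-1 and 33.7 FPKM in siRbm3-2, but 13.8 and 10.3 FPKM in the siCirbp libraries. Tapbp, which loads peptides onto MHC class I, had a difference of 0.67, and Podxl, a sialomucin of the cell surface, one of 0.70. Scrn1 (0.72), D0H4S114 (0.80) and 2900026A02Rik (0.94) complete the 10 smallest p among higher genes, and the adjusted p was 0.332 for all but Grb10.

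Ranked instead by the smaller of the differences in the 2 libraries, a few further genes came up. Uchl1, a ubiquitin hydrolase best known from neurons, measured 1.89 and 2.46 FPKM in mock, 11.9 FPKM in siRbm3-1 and 6.45 FPKM in siRbm3-2, a difference of 1.63 (limma adjusted p = 0.332). Dnajc9, a histone and heat shock co-chaperone, measured 6.26 and 5.01 FPKM against 10.5 and 11.2 FPKM, and Mxd3, a partner of Max, 3.64 and 5.94 FPKM against 8.97 and 8.91 FPKM (both adjusted p = 0.332). Cbr2, a carbonyl reductase, measured 6.16 and 7.97 FPKM against 13.6 and 14.2 FPKM (adjusted p = 0.455), and BC048355 had a difference of 0.82. On the lower side Ogn, the small proteoglycan osteoglycin, measured 73.5 and 71.1 FPKM in mock, 35.1 FPKM in siRbm3-1 and 15.9 FPKM in siRbm3-2 (-1.57, adjusted p = 0.340), but the siCirbp libraries stood at 71.5 and 18.8 FPKM.

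**Figure D2:**
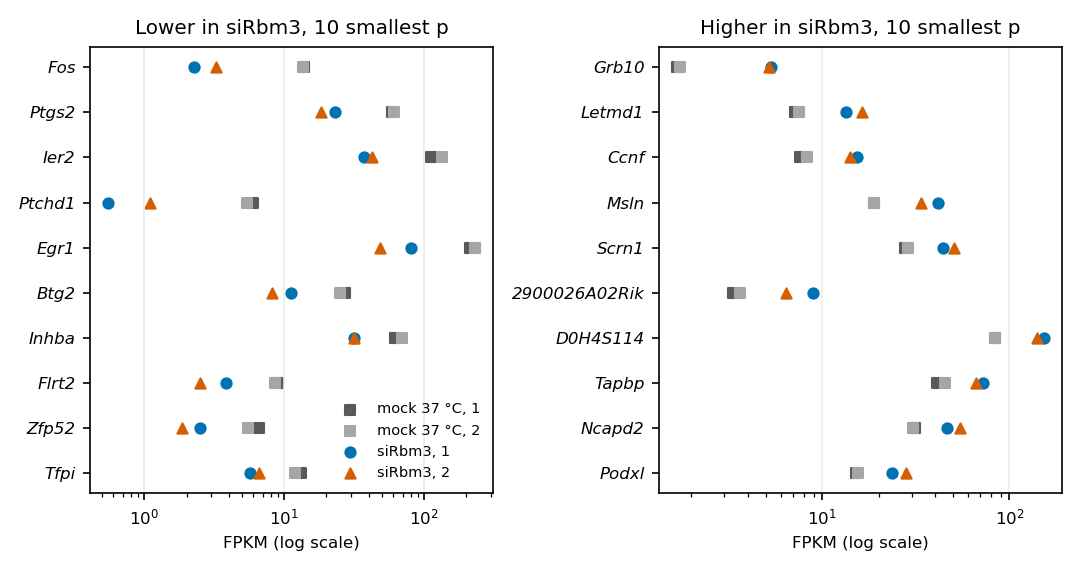
FPKM (log axis) of the 10 lower (left) and 10 higher genes (right) with the smallest p in siRbm3 against mock, 1 point per library. Squares (mock) and coloured symbols (siRbm3) do not overlap for any of the 20 genes, a condition for being shown, and Fos and Ptchd1 show the widest gaps.

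Promoter sequence is shown for Fos and Btg2, which hold the core of the cAMP response element, and for Ptgs2, which does not in this window. The motif searched was TGACG or its reverse complement CGTCA, so both strands were covered and overlapping matches count separately. It was found in 17.8% of 32851 RefSeq promoter windows of the same 250 bases before the start (GRCm38.p6). Of the 8 genes at the lower end for which a window was searched, 2 held it. No window was searched for Ier2 or Egr1. The 17.8% is a share of windows, not of genes, and includes windows left out of the search for the named genes. Matches are in capitals in the windows chr12:85473640-85473889 (plus strand), chr1:134079156-134079405 (minus strand) and chr1:150099781-150100030 (plus strand). In Fos they begin 129 and 66 bases before the start, and in Btg2 the pair of matches overlaps in a palindrome that begins 166 bases before it.
Fos: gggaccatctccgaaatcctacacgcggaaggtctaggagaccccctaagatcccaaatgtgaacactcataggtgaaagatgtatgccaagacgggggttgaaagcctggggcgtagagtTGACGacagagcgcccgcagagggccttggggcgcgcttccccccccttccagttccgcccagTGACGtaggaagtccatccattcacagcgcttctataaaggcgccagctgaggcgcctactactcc
Btg2: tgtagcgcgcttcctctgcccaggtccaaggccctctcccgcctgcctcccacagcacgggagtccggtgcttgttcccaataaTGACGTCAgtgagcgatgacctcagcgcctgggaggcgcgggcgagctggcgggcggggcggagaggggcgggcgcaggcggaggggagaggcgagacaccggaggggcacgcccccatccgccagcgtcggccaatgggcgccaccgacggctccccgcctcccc
Ptgs2: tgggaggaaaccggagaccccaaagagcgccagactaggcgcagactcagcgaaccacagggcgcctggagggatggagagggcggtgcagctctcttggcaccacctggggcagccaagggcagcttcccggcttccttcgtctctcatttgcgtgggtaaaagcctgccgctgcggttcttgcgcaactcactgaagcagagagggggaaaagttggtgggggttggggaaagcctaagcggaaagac

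Over a list of 24 immediate early genes, put together after the values of Fos and Egr1 had been seen, 23 were tested and 0 passed the threshold in the group comparison. Both siRbm3 libraries lay below both mock libraries for 13 of them and above for 0, beside 13.1% and 37.6% of all genes tested. The median difference of the list was -0.57, with -0.79 in siRbm3-1 and -0.43 in siRbm3-2, beside 0.12, 0.07 and 0.21 over all genes. Klf2 measured 8.70 and 12.1 FPKM in mock and 3.84 and 4.26 FPKM in siRbm3, and Dusp1, a phosphatase that switches off MAP kinases, 33.4 and 34.5 FPKM against 11.9 and 18.5 FPKM. Jun measured 37.2 and 41.7 FPKM in mock and 23.6 and 29.0 FPKM in siRbm3. Other members did not separate, for instance Atf3 with 8.66 and 9.33 FPKM against 8.34 and 11.1 FPKM, and Klf10 with 31.0 and 30.7 FPKM against 30.5 and 30.9 FPKM. In the single libraries, 3 members fell in siRbm3-1 (Fos, Egr1 and Zfp36) and 8 fell in siRbm3-2 (these and Ier2, Btg2, Dusp1, Egr2 and Egr3), beside 0.187% and 8.05% of all genes tested.

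Each library labelled siRbm3 was then set against mock on its own, with the lone library assumed to vary like the replicates of the other groups. The siRbm3 libraries differed from each other by a median of 0.313, against 0.0877, 0.106 and 0.261 in the other groups. The spread used may thus be too small, and the single-library p-values do not measure variation between the siRbm3 libraries. For siRbm3-1, limma called 22 genes (0.206% of those tested), 2 higher (0.0187%) and 20 lower (0.187%). For siRbm3-2 it called 1032 genes (9.67%), 173 higher (1.62%) and 859 lower (8.05%). Of the 22 genes called in siRbm3-1, 8 were called in the same direction in siRbm3-2, all of them lower: Fos, Egr1, Ptgs2, Cxcl1, Lmcd1, Zfp36, Mettl7b and Cyr61. These calls share the mock controls, and the counts moved with single control libraries. Without mock 37 °C replicate 1 or 2 both counts were 0. Without siCirbp replicate 1 they were 2191 and 5873, without siCirbp replicate 2 they were 2188 and 5875, without mock 32 °C replicate 1 they were 2 and 349, and without mock 32 °C replicate 2 they were 2 and 350.

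The falls in siRbm3-1 included cornified envelope, matrix and cell surface genes. Sprr1a, a small proline-rich protein of the cornified envelope, stood at 176 and 191 FPKM in mock, 22.0 FPKM in siRbm3-1 and 137 FPKM in siRbm3-2. Sprr1a fell by 3.01 in siRbm3-1 (SE 0.14, limma adjusted p = 0.00154), and the difference in siRbm3-2 was -0.42 (adjusted p = 0.0964). Its relative Sprr1b fell by 3.16 in siRbm3-1, and Sprr2k had a difference of -2.37. Lgals3, the lectin galectin-3, measured 83.4 and 85.4 FPKM in mock, 17.5 FPKM in siRbm3-1 and 80.9 FPKM in siRbm3-2, and it fell by 2.21 in siRbm3-1 (adjusted p = 0.00531) with a difference of -0.06 in siRbm3-2 (adjusted p = 0.766). The value in siRbm3-2 minus that in siRbm3-1 was 2.15 for Lgals3 and 2.59 for Sprr1a. The siCirbp libraries held Sprr1a at 33.8 and 34.4 FPKM and Lgals3 at 7.95 and 7.65 FPKM.

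Col6a3, a chain of type VI collagen, fell by 1.71 in siRbm3-1 (limma adjusted p = 0.0259), from 13.6 and 12.4 FPKM to 3.27 FPKM, while siRbm3-2 held 13.9 FPKM. Cdh6, a cadherin of mesenchymal and kidney cells, stood at 6.02 and 5.92 FPKM in mock, 0.396 FPKM in siRbm3-1 and 6.91 FPKM in siRbm3-2. The siCirbp libraries held Col6a3 at 2.57 and 2.29 FPKM, Cdh6 at 0.921 and 1.73 and Mmp10, which follows, at 1.16 and 1.70. The matrix protease gene Mmp10 fell by 1.88 in siRbm3-1 (adjusted p = 0.0287), from 5.23 and 5.59 FPKM to 0.736 FPKM, and measured 2.72 FPKM in siRbm3-2. Cyr61, a matricellular protein and YAP target, was at 358 and 435 FPKM in mock, 121 FPKM in siRbm3-1 and 225 FPKM in siRbm3-2, and it fell in each library (adjusted p = 0.0259 and 0.0313). Zfp36, the mRNA-destabilising protein tristetraprolin, measured 33.6 and 35.5 FPKM in mock, 10.9 FPKM in siRbm3-1 and 19.3 FPKM in siRbm3-2, and it fell by 1.58 in siRbm3-1 and fell by 0.81 in siRbm3-2. Its relative Zfp36l1 fell by 1.53 in siRbm3-1 (adjusted p = 0.0259), from 87.0 and 98.0 FPKM to 31.3 FPKM. Ccnd2, cyclin D2, fell by 1.49, Serpinf1, the secreted factor PEDF, fell by 1.46, Adamts1, a versican-cleaving protease, fell by 1.23, and Hiatl1 fell by 1.15 in siRbm3-1. Lmcd1, a LIM domain protein, and Mettl7b, a methyltransferase-like protein, fell in both libraries. Of the 2 rises in siRbm3-1, Pspc1, a paraspeckle protein, went from 9.65 and 10.5 FPKM to 24.2 FPKM (1.19, adjusted p = 0.0472), with 11.2 FPKM in siRbm3-2. The other, Papss2, which makes the sulphate donor PAPS, went from 0.880 and 0.734 FPKM to 4.09 FPKM, with 1.87 FPKM in siRbm3-2.

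The falls in siRbm3-2 were mostly of long transcripts. The 859 genes lower there had a median transcript length of 4523 nt, against 2813 nt for all genes tested and 2171 nt for the 173 genes higher. With genes in 5 bins of near-equal number by transcript length, the share lower in siRbm3-2 went from 1.31% in the shortest bin to 3.28%, 5.85%, 10.4% and 19.4% in the longest. Across genes, Spearman's rho between transcript length and difference was -0.41 for siRbm3-2 and -0.13 for siRbm3-1, given as a description since genes are not replicates. Atrx, a chromatin remodeller with a transcript of 10242 nt, stood at 35.4 and 37.0 FPKM in mock, 20.4 FPKM in siRbm3-1 and 5.89 FPKM in siRbm3-2. Atrx fell by 2.43 in siRbm3-2 (SE 0.20, limma adjusted p = 0.00482). The siCirbp libraries held Atrx at 31.5 and 35.0 FPKM. Whether RNA quality or library preparation had a part in the length pattern was not tested.

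Other long transcripts with large falls in siRbm3-2 were Thoc2, a subunit of the mRNA export complex TREX, Pik3c2a, a class II phosphoinositide 3-kinase, and Phip, a bromodomain protein. Thoc2 went from 19.2 and 18.2 FPKM in mock to 3.50 FPKM in siRbm3-2, and stood at 11.7 FPKM in siRbm3-1. Pik3c2a went from 19.9 and 19.6 FPKM to 4.15 FPKM, with 15.2 FPKM in siRbm3-1, and Phip from 13.5 and 13.8 FPKM to 2.73 FPKM, with 9.37 FPKM in siRbm3-1. Ranbp2, a nuclear pore protein, Trpm7, an ion channel fused to a kinase, and Bod1l, a replication fork protein, had differences of -1.97, -1.94 and -1.93, all past the threshold. The shorter transcripts of Esf1, a nucleolar protein, and 2610203C20Rik fell as well, with differences of -1.92 and -2.05. None of these 8 genes passed in siRbm3-1.

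Rises in siRbm3-2 took in RNA components of nuclear ribonucleoproteins, matrix genes and a keratin. Rmrp, the RNA of the RNase MRP enzyme, stood at 25.0 and 29.2 FPKM in mock, 64.9 FPKM in siRbm3-1 and 253 FPKM in siRbm3-2, a rise of 3.18 in siRbm3-2 (limma adjusted p = 0.00690) with 1.24 in siRbm3-1 (0.289). In mock cells at 32 °C Rmrp stood at 142 and 201 FPKM, and in the siCirbp libraries at 90.5 and 43.2 FPKM. Rprl3, a relative of the RNase P RNA, rose by 2.80 in siRbm3-2 and Scarna13, a guide RNA of Cajal bodies, by 1.48. These RNAs are short or structured, and their share in a polyadenylated library depends on the selection. Acan, the cartilage proteoglycan aggrecan, stood at 1.97 and 1.76 FPKM in mock, 0.491 FPKM in siRbm3-1 and 7.85 FPKM in siRbm3-2 (1.63, adjusted p = 0.00482). Krt19, a simple epithelial keratin, measured 1.34 and 1.70 FPKM in mock, 2.35 FPKM in siRbm3-1 and 7.55 FPKM in siRbm3-2, while the epithelial markers Epcam, Krt5 and Krt14 were at most 0.0399 FPKM in any of the 4. Smpd3, a neutral sphingomyelinase, Sulf2, which trims heparan sulphate, Gcat, an enzyme of threonine breakdown, and H2-T23, an MHC class Ib gene, rose by 1.57, 1.17, 1.15 and 1.13. Grb10 rose by 1.19 in siRbm3-2 (adjusted p = 0.00660), and its difference of 1.22 in siRbm3-1 had an adjusted p of 0.0528.

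**Figure D3:**
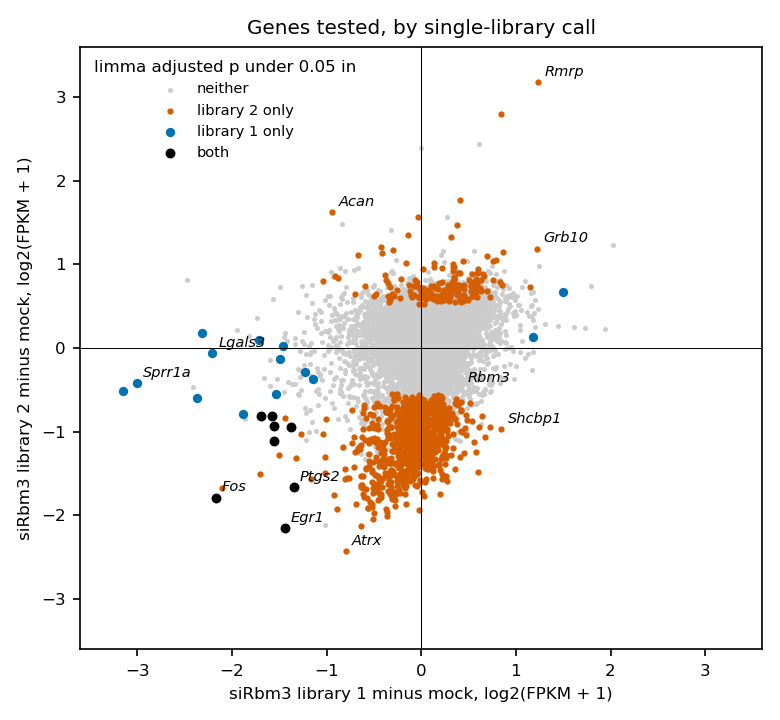
Difference from the mock mean in log2(FPKM + 1) for siRbm3-1 (horizontal axis) and siRbm3-2 (vertical axis), 1 point per gene tested, coloured by single-library limma call. Both axes share the mock libraries; 8 genes called in both lie at the lower left, and the 859 genes lower in siRbm3-2 form the band below the horizontal line.

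A direct contrast of siRbm3-2 with siRbm3-1 sets 1 library against 1, so its p-values take their spread from the other groups alone. On that assumption it called 928 genes (8.69%), 216 higher and 712 lower (2.02% and 6.67%) in siRbm3-2, and 0 when either mock 32 °C or either mock 37 °C replicate was left out. The count was 4324 without siCirbp replicate 1 and 4325 without siCirbp replicate 2. Genes that lay on opposite sides of mock included cell division genes, which were chosen for that pattern and are given as values with no test. Shcbp1, a protein of the late stages of division, stood at 9.02 and 9.30 FPKM in mock, 17.3 FPKM in siRbm3-1 and 4.18 FPKM in siRbm3-2, and the libraries differed by -1.82. Kif11, the motor that separates spindle poles, measured 13.2 and 13.4 FPKM in mock, 21.3 FPKM in siRbm3-1 and 7.15 FPKM in siRbm3-2, a contrast of -1.45. Ncapg2, a condensin II subunit, measured 3.84 and 4.15 FPKM in mock, 6.73 FPKM in siRbm3-1 and 1.66 FPKM in siRbm3-2. Aspa, Rpgrip1l and Bzw1 took the same course, with contrasts of -1.74, -1.67 and -1.26. In the other direction, the contrast was 2.57 for Acan, 1.86 for Spns2, a sphingosine-1-phosphate transporter, and 1.77 for Stbd1, a glycogen-binding protein. For H2-D1, Syt7 and Scarna6 it was 1.81, 1.78 and 2.32.

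Gene lists for pathways of fibroblasts were described next. Over 27 lists with 557 distinct genes tested, 0 members passed the threshold in the group comparison. Genes of G1/S transition and DNA replication lay highest, with a median difference of 0.46 over 30 members tested, 0.71 in siRbm3-1 and 0.32 in siRbm3-2. Both siRbm3 libraries were above both mock libraries for 23 of the 30 and below for 0, beside 37.6% and 13.1% of all genes tested. Lig1, the replicative DNA ligase, measured 10.6 and 11.4 FPKM in mock and 18.4 and 17.0 FPKM in siRbm3. Mcm5, a subunit of the replicative helicase, measured 8.48 and 10.8 FPKM in mock, 23.3 FPKM in siRbm3-1 and 14.7 FPKM in siRbm3-2, and Rrm1, a subunit of ribonucleotide reductase, 27.6 and 27.7 FPKM against 50.1 and 37.9 FPKM. For Lig1, Mcm5 and Rrm1 the limma adjusted p was 0.332, 0.340 and 0.340. In siRbm3-2 1 member, Pola1, a subunit of DNA polymerase alpha, fell by 1.45, beside 8.05% of all genes lower there.

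Genes of G2/M and mitosis had a median difference of 0.42 over 29 members tested, with 0.53 in siRbm3-1 and 0.37 in siRbm3-2. Both siRbm3 libraries were above mock for 18 and below for 3, beside 37.6% and 13.1% of all genes. Within siRbm3-2, 7 members rose and 7 fell, beside 1.62% and 8.05% of all genes. The 7 that rose in siRbm3-2 were Plk1, Cdc20, Birc5, Aurkb, Ube2c, Aurka and Cenpa, kinases, destruction factors and chromosomal proteins of mitosis. Plk1 went from 14.6 and 14.8 FPKM in mock to 27.6 FPKM in siRbm3-2 (0.86, limma adjusted p = 0.0271), and measured 23.9 FPKM in siRbm3-1. Cdc20 went from 14.6 and 16.1 FPKM to 29.7 FPKM (0.91, adjusted p = 0.0198), and measured 23.8 FPKM in siRbm3-1. The 7 that fell were Cenpe, Cenpf, Mki67, Ttk, Bub1, Top2a and Kif11. Their transcripts were of 2904 to 11122 nt, and those of the 7 that rose were of 931 to 2203 nt; the part of transcript length was not tested. Mki67, the proliferation antigen, fell by 1.68, Cenpf, a large kinetochore protein, by 1.78 and Cenpe, a kinetochore motor, by 1.67. In siRbm3-1 no member passed, and Mki67 and Bub1 differed from mock by -0.17 and 0.46.

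Energy and redox genes lay above mock in both libraries by modest amounts. For 38 nuclear-encoded subunits of the respiratory chain and ATP synthase the median difference was 0.37 (0.29 in siRbm3-1 and 0.49 in siRbm3-2), and 27 were above mock in both libraries and 0 below, beside 37.6% and 13.1% of all genes. Atp5b, the catalytic subunit of ATP synthase, measured 461 and 475 FPKM in mock and 638 and 719 FPKM in siRbm3 (limma adjusted p = 0.336), and Sdhb, the iron-sulphur subunit of complex II, 65.9 and 72.6 FPKM against 86.9 and 107 FPKM (adjusted p = 0.340). After the length trend was removed the median of this list was 0.13. For 17 genes of the NRF2 antioxidant response the median was 0.33 (0.27 in siRbm3-1 and 0.37 in siRbm3-2, and 0.14 for the group with the length trend removed). Of these 14 were above mock in both libraries and 1 below, beside the same 37.6% and 13.1%. Gclm, a subunit of the enzyme that starts glutathione synthesis, measured 18.1 and 18.9 FPKM in mock and 33.0 and 28.5 FPKM in siRbm3, whereas Slc7a11, the cystine importer, measured 1.61 and 1.59 FPKM against 1.05 and 0.666 FPKM. For 26 ER stress and eIF2-pathway genes the median was 0.30, with 0.11 in siRbm3-1 and 0.50 in siRbm3-2, and it was 0.084 with the length trend removed. In siRbm3-2 Calr, Xbp1 and Trib3 rose and Dnajc3 fell, beside 1.62% and 8.05% of all genes. Calr, an ER chaperone, measured 266 and 273 FPKM in mock and 367 and 447 FPKM in siRbm3. Glycolysis and hypoxia genes lay on opposite sides of mock, with medians of -0.21 in siRbm3-1 and 0.47 in siRbm3-2.

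Matrix protease genes and splicing regulators also differed between the 2 libraries. The median over 18 matrix proteases and inhibitors was -0.28 for the group, -0.69 in siRbm3-1 and 0.17 in siRbm3-2. Mmp13, an interstitial collagenase, measured 1.84 and 2.00 FPKM in mock and 0.210 and 0.436 FPKM in siRbm3 (limma adjusted p = 0.208), and Mmp3, a stromelysin, 10.0 and 8.94 FPKM against 1.88 and 4.83 FPKM (adjusted p = 0.332). Mmp2, a gelatinase, was at 61.7 and 61.3 FPKM in mock, 34.6 FPKM in siRbm3-1 and 97.9 FPKM in siRbm3-2. For 33 splicing regulators the median was -0.05, with 0.23 in siRbm3-1 and -0.35 in siRbm3-2, and 7 members fell in siRbm3-2: Mbnl1, Mbnl2, Srsf10, Ptbp2, Qk, Clk1 and Hnrnph1. Over all genes tested 8.05% fell in that library. Hnrnph1 measured 92.9 and 96.7 FPKM in mock, 142 FPKM in siRbm3-1 and 39.3 FPKM in siRbm3-2. Srsf10, an SR-like splicing factor, fell by 1.30 in siRbm3-2, from 12.6 and 12.9 FPKM to 4.58 FPKM.

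Lists that bear on siRNA itself had 0 members past the threshold in the group comparison. The median over 16 genes of the interferon response and double-stranded RNA sensing was -0.03, with 0.05 in siRbm3-1 and 0.11 in siRbm3-2, and it was 0.06 with a mean of at least 5 FPKM. No member passed in siRbm3-1 and 2 were lower in siRbm3-2, beside 8.05% of all genes lower there. These were Ifit2, from 12.1 and 12.6 FPKM in mock to 4.49 FPKM, and Eif2ak2, the double-stranded RNA kinase PKR, from 13.2 FPKM in both mock libraries to 7.63 FPKM. In siRbm3-1 Ifit2 was at 15.0 FPKM and Eif2ak2 at 15.7 FPKM. For 16 RNA interference genes the median was 0.19, with 0.17 in siRbm3-1 and 0.25 in siRbm3-2, beside 0.12, 0.07 and 0.21 over all genes. Of these genes, 8 were above mock in both libraries and 0 below, beside 37.6% and 13.1% of all genes. Of 16 RNA interference genes, Snd1 rose and Eif2c3, Tnrc6a and Tnrc6b fell in siRbm3-2, beside 1.62% and 8.05% of all genes. None of the 16 passed in siRbm3-1.

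Proteins of pre-mRNA 3' end processing, the machinery that picks the polyadenylation site, had a median difference of 0.16 over 20 members tested (0.15 in siRbm3-1 and 0.11 in siRbm3-2), and of 0.02 with quantile normalization. In siRbm3-2, Papolg, a poly(A) polymerase, fell by 1.05 and Pcf11, a termination and cleavage factor, fell by 1.07. Cpsf6, a subunit of cleavage factor I, fell by 0.87, Rbbp6 fell by 0.77, and Sympk, the scaffold symplekin, rose by 0.59. Over all genes tested 1.62% rose and 8.05% fell in that library. Pcf11 measured 12.5 and 12.4 FPKM in mock, 11.2 FPKM in siRbm3-1 and 5.38 FPKM in siRbm3-2. No member passed in siRbm3-1.

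The other lists had group medians from -0.06 to 0.33, beside 0.12 for all genes, with few members past the threshold in a single library. Over all genes tested, 1.62% rose and 8.05% fell in siRbm3-2, and 0.187% fell in siRbm3-1. Among cold-inducible and related RNA-binding proteins, with a median of 0.10 over 14 tested, the splicing coactivator Rbm39 fell in siRbm3-2. Rbm39 measured 117 and 116 FPKM in mock, 107 FPKM in siRbm3-1 and 38.0 FPKM in siRbm3-2. Of 24 collagen and matrix genes, Col6a3 fell in siRbm3-1 and Col5a1 and Col4a2 rose in siRbm3-2. Of 24 p53 targets, Perp, a desmosomal and apoptotic protein, rose in siRbm3-2, and Btg2, Rrm2b, Polk and Trp53inp1 fell there. Among translation initiation factors Eif3a and Eif5b fell in siRbm3-2, from 128 and 129 FPKM to 48.5 FPKM for Eif3a. Fads2, a fatty acid desaturase, rose in siRbm3-2, with 34.3 and 38.6 FPKM in mock and 56.4 and 60.2 FPKM in the siRbm3 libraries, and 0 of 21 cholesterol genes passed in either library. Of 33 cytosolic ribosomal protein genes, Rplp2 fell in siRbm3-2, and the medians were -0.09 in siRbm3-1 and 0.31 in siRbm3-2.

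**Figure D4:**
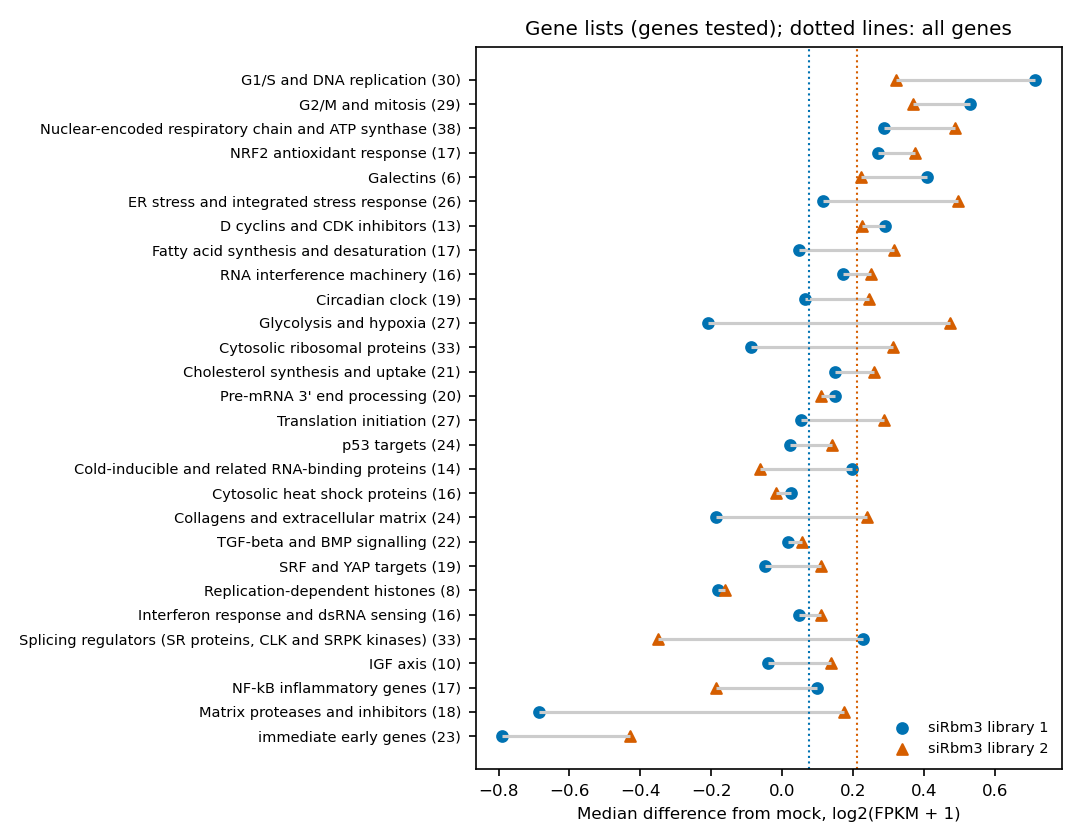
Median difference from mock in log2(FPKM + 1) for siRbm3-1 (circles) and siRbm3-2 (triangles) over the genes tested of each list, with dotted lines for all genes tested. The G1/S, G2/M, D cyclin and CDK inhibitor, galectin, respiratory chain and NRF2 lists lie above both dotted lines in both libraries. For matrix proteases, glycolysis and splicing regulators the libraries lie far apart.

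The use of 3' ends was compared in 182 genes whose transcripts end at least 100 bases apart and whose most distal end took 10% to 90% of the FPKM. With limma, 4 genes passed the threshold (2.2%), 2 with more (1.1%) and 2 with less (1.1%) of the distal end. Brcc3 (mm9, chromosome X), a deubiquitinase of the BRCA1-A complex, had 71.5% and 70.9% of its FPKM from the distal end at 72701040 in mock, 84.6% in siRbm3-1 and 90.4% in siRbm3-2 (adjusted p = 0.0220). Prr3 (chromosome 17) had 73.6% and 71.7% from the end at 36109484 in mock and 89.6% and 85.3% in siRbm3 (adjusted p = 0.0220). Pcdh7 (chromosome 5), a protocadherin, had 55.3% and 50.3% from the end at 58523479 in mock and 25.3% and 33.3% in siRbm3, where the next end lies 402775 bases upstream, so its transcripts differ by more than a choice of nearby 3' ends. Ghr (chromosome 15), the growth hormone receptor, had 79.9% and 79.4% from the end at 3267760 in mock and 66.9% and 60.1% in siRbm3. The median difference over the 182 genes was -0.00, with 88 above 0 and 94 below.

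These 4 calls depended on single libraries. There were 0 without either mock 37 °C replicate or either siCirbp replicate, 16 without siRbm3-1, 7 without siRbm3-2, and 1 when only the 4 libraries compared were fitted. In mock cells at 32 °C the distal share was 38.4% and 44.5% for Brcc3, 26.2% and 23.5% for Pcdh7, 66.6% and 63.1% for Ghr and 76.4% and 70.7% for Prr3. In siRbm3-2 alone 8 genes used the distal end more and 7 less (4.4% and 3.85%, 8.24% in all), and in siRbm3-1 1 more and 1 less (0.549% each, 1.1% in all). Igf1 (chromosome 10), insulin-like growth factor 1, was among those lower in siRbm3-2, with 80.8% and 80.3% in mock, 71.9% in siRbm3-1 and 46.2% in siRbm3-2 (limma adjusted p = 0.00442 for siRbm3-2 and 0.382 for siRbm3-1).

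**Figure D5:**
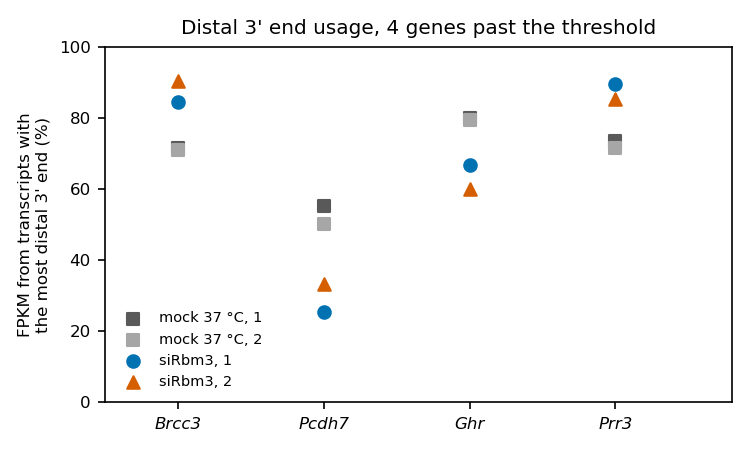
Share of a gene's FPKM from transcripts with the most distal 3' end (percent), 1 point per library, for the 4 genes past the threshold. The siRbm3 points lie above both mock points for Brcc3 and Prr3 and below both for Pcdh7 and Ghr.

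Shares of single transcripts were compared for 2851 transcripts of 1297 genes, and 0 passed with limma (0%), with 149 at an unadjusted p under 0.05. The smallest adjusted p was 0.0882, for transcripts of Kif21a and Cryzl1. Cryzl1, a quinone reductase relative, had 100% and 100% of its FPKM from the transcript of 1792 nt in mock and 62.9% and 67.6% in siRbm3. The Kif21a transcript of 6124 nt made up 0.513% and 0.0243% in mock and 70.2% and 47.0% in siRbm3, but Cufflinks marked the estimate of this gene as failed in at least 1 library. Gng12, a G protein gamma subunit, had at most 0.00468% of its FPKM from a transcript of 4194 nt in mock and 24.1% and 23.2% in siRbm3 (adjusted p = 0.0937).

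Genes with an Rbm3 PAR-CLIP site in their locus were described last. A site was counted for a gene when it overlapped any part of the locus, introns included, on either strand. Where loci overlap, a site counted for each gene, so a count need not mean binding of that gene's mRNA. The Rbm3 library lists 2118 sites, of which 1525 lie in the loci of 947 genes tested, and it has no replicate. Among the 947 genes with a site the median difference was 0.06, beside 0.13 for the 9728 without one. Both siRbm3 libraries were above mock for 33.7% of the genes with a site and 38.0% of those without, and below for 18.6% and 12.6%. In siRbm3-2, 14.6% of genes with a site and 7.41% of those without were lower. The 592 genes with an Rbm3 site and no Cirbp site had 8.78% lower and a median difference of 0.11, and the 355 with sites of both proteins had 24.2% lower and a median of -0.05. Genes with a site also had longer transcripts, with a median of 3705 nt against 2730.5 nt, and higher mock levels, at 18.7 against 12.4 FPKM. In the bin of longest transcripts, 27.8% of genes with a site and 18.0% of those without were lower in siRbm3-2, and in the shortest bin 0% and 1.35% were. From short to long, the bins between had 2.92% and 3.30%, 5.82% and 5.86%, and 14.9% and 9.73%. Within the longest bin, genes with a site had a median of 6618.5 nt, against 5978 nt. Genes with sites of both proteins had a median of 4186 nt, and those with an Rbm3 site and no Cirbp site 3480 nt. The part of transcript length in the share lower was not tested.

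Son, a nuclear speckle protein needed for splicing, held the most Rbm3 sites of the genes tested, at 20, and stood at 50.5 and 49.2 FPKM in mock, 56.2 FPKM in siRbm3-1 and 38.9 FPKM in siRbm3-2. Ythdf2, a reader of m6A that speeds mRNA decay, held 12 sites and measured 8.59 and 8.79 FPKM in mock against 9.79 and 9.33 FPKM. Arid1a, a subunit of the SWI/SNF remodeller, held 11 sites and measured 15.7 and 16.9 FPKM against 19.2 and 20.1 FPKM. Klhl15, an adaptor of a cullin ubiquitin ligase, also held 11 and measured 3.45 and 3.20 FPKM against 2.54 and 1.97 FPKM. Nufip2, a partner of FMRP, held 9 sites and fell by 1.22 in siRbm3-2 (limma adjusted p = 0.00571), from 11.5 and 10.9 FPKM to 4.24 FPKM, with 9.41 FPKM in siRbm3-1. Among Fos, Ptgs2, Grb10, Brcc3, Prr3 and Ghr 0 held a listed Rbm3 site, and Pcdh7 held 2.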

How the data were processed

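Polyadenylated RNA of mouse embryonic fibroblasts was sequenced as 76 bp single-end reads, per the labels, in 8 libraries. The submitters' processing notes name TopHat 1.1.2 and the mm9 build; the version of Cufflinks and the annotation release are not given in the sources used here. FPKM values per transcript were used as deposited by the authors. The coverage column, a signal per base as deposited by the authors, gave the depth: its ratio to FPKM is constant in a library, and with a read length of 75 the reads of genes of 1 transcript under 100 reads were whole within 0.05 in 92.6% to 92.9% of cases. PAR-CLIP site scores, as deposited by the authors, have no stated scale and were used only to split sites at the median.

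FPKM were summed per gene, and log2(FPKM + 1) values went into limma 3.58.1 (R 4.3.3, trend and robust options) as 4 groups, leaving 4 residual degrees of freedom, or as 5 with the siRbm3 libraries apart, leaving 3. All p-values are two-sided, adjusted by Benjamini-Hochberg over every gene tested, with a threshold of 0.05. Usage was tested on log2 ratios of FPKM + 1 for genes of at least 5 FPKM. The fit was tested on simulated data. Gene lists, markers and the comparison itself were chosen with earlier results of these data known. Per comparison the text names Rbm3, Cirbp, the 10 largest called changes per direction (under 5 calls, the 10 smallest p) among genes of at least 5 FPKM without overlap of libraries, the 10 per direction with the largest smaller difference of the 2 libraries, 6 genes per direction that moved opposite ways, list members of smallest p, and the 5 genes with most Rbm3 sites; members called in 1 library, other immediate early genes, Mmp2, Igf1, Jun, Atf3, Klf10 and the small RNAs were named after their values were seen. Replicate numbers were not taken as pairs. The result for 1 list member is not reported here. Alternatives were another pseudocount, filter, centring, quantile normalization, removal of the length trend, the highest transcript, a replicate block, the 4 libraries alone, leaving out single libraries, and, chosen after seeing the data, leaving out genes with a failed status.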

Additional observations from a re-analysis of the deposited data

How the results depend on the processing

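The count of genes in siRbm3 against mock was 1 with a pseudocount of 5 and 2 with a mean of at least 5 FPKM, with median centring and with the length trend removed, and 0 to 1034 when single libraries were left out. List members past the threshold numbered 1, 2, 2 and 2 under these settings and 0 to 67 with single libraries left out. For siRbm3-1 the count was 6 with no filter, 14 with a mean of at least 5 FPKM, 37 with median centring, 55 with quantile normalization and 0 to 2191 with single libraries left out. For siRbm3-2 it was 0 to 5875 with single libraries left out, and for siRbm3-2 against siRbm3-1 388 with no filter and 0 to 4325. The Rbm3 difference turned to 0.0032 with a pseudocount of 5, 0.0019 with quantile normalization and 0.11 with the highest transcript, and ran from -0.48 to 0.42 with single libraries left out (0.05 without mock replicate 2). Cirbp turned to -0.091 with the length trend removed and ran from -0.24 to 0.50. At a mean of at least 5 FPKM Rbm3 was not tested. Distal usage gave 1 gene with only the libraries compared and 0 to 16 with single libraries left out, and transcript usage 0 to 2. The median of genes with Rbm3 sites was 0.020 for sites of at least the median score. With replicate number as a block, 0 genes, 4 distal ends and 0 transcripts passed, and no call of the group comparison changed; deviations of same-numbered mock and siRbm3 libraries correlated at 0.26, from 2 pairs only. Over 32 named genes and 628 values under alternatives, 0 changed direction and 36 passed the threshold. These genes were chosen for lying on the same side of mock in both siRbm3 libraries, which left little room for a change of direction. Over 27 list medians and 540 values, 58 moved beyond the replicate spread. The causes were not tested. Each group has 2 libraries of 25.1 M to 28.2 M fragments, and no fit at another depth was made.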

Other observations

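Numbered zinc finger genes, taken by symbol with no check of their domains, were looked at as a family after the data were seen. Of 253 tested, 0 passed in the group comparison, 59 fell and 1 rose in siRbm3-2, and 1 fell in siRbm3-1, beside 8.05% lower and 1.62% higher in siRbm3-2 and 0.187% lower in siRbm3-1 over all genes. The 1 that fell in siRbm3-1 was Zfp36, the mRNA-destabilising protein described above. The median difference of the family was -0.00, with 0.07 in siRbm3-1 and -0.10 in siRbm3-2, beside 0.07 and 0.21 over all genes tested. Small structured noncoding RNAs were another such family: of 6 tested, 3 rose in siRbm3-2 and 4 were above mock in both libraries, beside 1.62% and 37.6% of all genes. Rpph1, the RNA of RNase P, stood at 4.50 and 8.96 FPKM in mock, 10.3 FPKM in siRbm3-1 and 39.0 FPKM in siRbm3-2, with a difference of 2.43 in siRbm3-2 (limma adjusted p = 0.0638).

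Among circadian clock genes, 19 were tested and 0 passed in the group comparison. The list median was 0.17, with 0.06 in siRbm3-1 and 0.25 in siRbm3-2, beside 0.12, 0.07 and 0.21 over all genes. In both siRbm3 libraries 7 members were above mock and 2 below, beside 37.6% and 13.1% of all genes. Clock, a core activator of the loop, measured 15.1 and 16.7 FPKM in mock, 15.7 FPKM in siRbm3-1 and 4.66 FPKM in siRbm3-2, a difference of -1.58 in siRbm3-2. The transcription factor Tef, an output of the clock, measured 19.5 and 20.1 FPKM in mock and 35.2 and 33.6 FPKM in siRbm3 (limma adjusted p = 0.332), and its relative Hlf 11.1 and 10.5 FPKM against 3.31 and 7.17 FPKM (adjusted p = 0.332). The neutrophil chemokine Cxcl1 measured 64.8 and 64.5 FPKM in mock, 21.3 FPKM in siRbm3-1 and 33.4 FPKM in siRbm3-2, and fell in each library (adjusted p = 0.0164 and 0.00697), while the group comparison gave -1.25 with an adjusted p of 0.208. Dcn, the proteoglycan decorin, measured 586 and 542 FPKM in mock and 353 and 363 FPKM in siRbm3, whereas Col1a2 measured 169 and 182 FPKM against 250.4 and 271 FPKM, both with an adjusted p of 0.332.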
